A study of Mus musculus with 18 samples.

Results

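Protein-coding genes named Gpr followed by a number, with or without a letter, were followed through 3 cell fractions of the embryonic mouse cortex. The authors' annotated comparison table holds 89 such entries under 87 symbols, of 26601 annotated genes. Gpr45 and Gpr173 each have 2 identifiers. They were chosen by symbol and biotype with no threshold on a level, but the set was proposed with earlier results of these data known, with Gpr22 and Gpr26 as its leading genes. The levels of Gpr22 and Gpr26 are therefore given as a description with no test. They stay in the counts over the set, which support nothing beyond themselves. The name does not define a protein family. Gpr89, Gpr107, Gpr108, Gpr137, Gpr137b, Gpr137c, Gpr155 and Gpr180 carry it although they are intracellular or of another membrane fold.

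The cells came from the lateral cortex of C57BL/6 embryos at embryonic day 14.5, from which meninges and ganglionic eminences had been removed, per the labels' protocols. All embryos carried reporters at Btg2, an antiproliferative gene of progenitors that are committed to neurogenesis, and at Tubb3, a neuronal tubulin. The genotype label is Btg2GFP/Tubb3GFP, while titles write RFP for the Btg2 fractions. Neuron is the GFP+ fraction, DP (differentiating progenitors) the RFP+ Btg2 positive fraction and PP (proliferating progenitors) the RFP- Btg2 negative fraction. Each fraction had 3 libraries, each of sorted cells pooled from more than 3 embryos of different litters, and each read in 2 runs whose counts were added. A fraction is a sorted bulk sample, so fewer cells of a type and less RNA per cell cannot be told apart.

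G protein coupled receptors cross the membrane with a bundle of helices and, once bound by a ligand, make a G protein of alpha, beta and gamma subunits exchange GDP for GTP. Alpha subunits of the Gs class switch adenylyl cyclases on and those of the Gi class switch them off, while RGS proteins end the signal and receptor kinases with arrestins silence the receptor. Receptors with a Gpr name were mostly found by sequence before a ligand was known, and many remain orphans. In the developing cortex, Gpr56 is the one best known, since its loss in humans disturbs the formation of the cortical wall.

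Promoter sequence was taken from RefSeq (GRCm38.p6, 250 bases before to 50 after each annotated start), where 63 of the 89 entries had at least 1 promoter. Those printed belong to the 3 genes with the largest increase and the 3 with the largest decrease of Neuron over DP among genes past the threshold with at least 1 CPM (a gene's counts scaled to library total), a listed promoter and 1 entry under their symbol. Gpr45 was passed over because its listed start was not tied to 1 of its 2 models. The genes are Gpr12, which has 2 starts, Gpr22 and Gpr176 on the rising side and Gpr98 (Adgrv1), Gpr30 (Gper1) and Gpr123 (Adgra1) on the falling side. Capitals mark a match, on either strand, to CAGATG (its reverse complement is CATCTG) or CAGCTG, 2 forms of the E-box that proneural factors can bind, or to TTCCCAC (reverse complement GTGGGAA), the form bound by the Notch effector Rbpj. The 3 motifs do not overlap.
Gpr12 start 1, chr5:146585190-146585489, minus strand: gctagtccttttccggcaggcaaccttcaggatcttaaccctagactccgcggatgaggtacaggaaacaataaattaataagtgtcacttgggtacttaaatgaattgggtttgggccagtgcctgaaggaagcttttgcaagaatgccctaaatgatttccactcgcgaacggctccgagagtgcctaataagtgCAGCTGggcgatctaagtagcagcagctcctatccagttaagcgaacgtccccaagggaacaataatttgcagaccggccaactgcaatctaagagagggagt
Gpr12 start 2, chr5:146584355-146584654, minus strand: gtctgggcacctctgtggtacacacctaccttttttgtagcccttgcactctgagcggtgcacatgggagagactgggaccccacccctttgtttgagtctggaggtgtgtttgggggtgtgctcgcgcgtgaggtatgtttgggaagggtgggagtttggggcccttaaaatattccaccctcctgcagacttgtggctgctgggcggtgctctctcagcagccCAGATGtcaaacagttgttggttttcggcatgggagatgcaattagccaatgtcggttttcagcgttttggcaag
Gpr22, chr12:31713834-31714133, minus strand: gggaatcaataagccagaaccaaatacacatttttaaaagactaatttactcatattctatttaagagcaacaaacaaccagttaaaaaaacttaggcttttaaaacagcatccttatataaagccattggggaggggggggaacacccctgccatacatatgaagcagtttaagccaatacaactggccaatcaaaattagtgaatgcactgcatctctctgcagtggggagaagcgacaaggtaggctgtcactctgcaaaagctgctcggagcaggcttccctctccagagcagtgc
Gpr176, chr2:118373370-118373669, minus strand: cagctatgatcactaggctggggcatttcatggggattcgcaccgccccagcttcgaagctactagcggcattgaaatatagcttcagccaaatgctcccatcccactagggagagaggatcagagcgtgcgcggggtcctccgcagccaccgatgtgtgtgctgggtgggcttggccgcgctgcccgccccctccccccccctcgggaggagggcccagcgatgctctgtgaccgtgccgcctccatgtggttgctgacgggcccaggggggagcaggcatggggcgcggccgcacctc
Adgrv1, chr13:81633095-81633394, minus strand: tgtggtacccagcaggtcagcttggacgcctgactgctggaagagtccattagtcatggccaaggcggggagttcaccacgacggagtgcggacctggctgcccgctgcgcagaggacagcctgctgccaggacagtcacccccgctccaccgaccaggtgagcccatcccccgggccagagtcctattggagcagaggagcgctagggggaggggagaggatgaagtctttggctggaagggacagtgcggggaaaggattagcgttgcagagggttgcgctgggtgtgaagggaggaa
Gper1, chr5:139422929-139423228, plus strand: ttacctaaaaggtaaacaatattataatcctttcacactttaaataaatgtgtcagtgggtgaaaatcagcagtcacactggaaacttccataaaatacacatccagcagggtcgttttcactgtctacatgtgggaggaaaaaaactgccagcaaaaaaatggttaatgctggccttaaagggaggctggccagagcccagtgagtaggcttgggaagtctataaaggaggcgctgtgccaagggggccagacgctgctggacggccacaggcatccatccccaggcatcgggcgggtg
Adgra1, chr7:139833924-139834223, plus strand: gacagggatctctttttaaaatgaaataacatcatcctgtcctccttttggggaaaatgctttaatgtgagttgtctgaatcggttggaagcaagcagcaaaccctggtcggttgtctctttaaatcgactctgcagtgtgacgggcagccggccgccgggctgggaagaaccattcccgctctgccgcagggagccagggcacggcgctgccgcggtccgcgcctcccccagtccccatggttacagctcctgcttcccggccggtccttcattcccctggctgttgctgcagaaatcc

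Start 1 of Gpr12 held 1 CAGCTG and start 2 held 1 CAGATG. No match to the motifs searched stood in the windows of Gpr22, Gpr176, Adgrv1, Gper1 or Adgra1. Other forms of the E-box were not searched. CAGCTG was found in 10 of 28 promoters (35.7%) of Gpr genes higher in Neuron than DP and in 4 of 21 (19.0%) of those lower. It was found in 24 of 82 promoters (29.3%) of all Gpr entries with one, and in 5355 of 32851 promoters (16.3%) of all genes. CAGATG was found in 21.4%, 14.3%, 17.1% and 17.2% of the same promoters. TTCCCAC was found in 3 of 28, in 0 of 21, in 8 of 82 and in 6.38% of all. Genes with several starts add several promoters. A match is a description of letters, not of a bound site.

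The summed level of all 89 entries was similar in Neuron and DP and lower in PP, and its makeup differed between Neuron and the progenitors. The highest PP library (1433 CPM) lay below the lowest of DP (1498 CPM) and of Neuron (1534 CPM). The sum was 1554 ± 19.8 CPM in Neuron, 1533 ± 41.4 CPM in DP and 1398 ± 31.1 CPM in PP (mean ± SD, n = 3, as throughout). At least 1 CPM on average was reached by 43 entries in Neuron, 31 in DP and 35 in PP. The 3 highest entries took 38.3% of the sum in Neuron (Gpr56, Gpr162 and Gpr161), 64.0% in DP (Gpr56, Gpr125 and Gpr98) and 62.2% in PP (Gpr56, Gpr98 and Gpr125). Per length of the gene model, Gpr56 was the most abundant in every fraction. It stood at 99.6 ± 12.5 CPM per kb in Neuron, 206 ± 10.9 CPM per kb in DP and 147 ± 2.58 CPM per kb in PP. In Neuron it was followed by Gpr161, Gpr162, Gpr85 and Gpr125, at 42.3 to 28.0 CPM per kb, of which Gpr85 and Gpr125 differed by less than their SD. In DP it was followed by Gpr125 at 38.7, Gpr161 at 20.9 and, further down, the short model of Gpr173 at 12.8 CPM per kb, and in PP by Gpr125 at 40.8, Gpr161 at 17.0 and, further down, Gpr19 at 11.1 CPM per kb.

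The filter on low counts kept 61 of the 89 entries. Of these, 37 reached its level of 0.232 CPM in all libraries of all 3 fractions, 9 in Neuron alone, 1 in DP alone (Gpr133) and 4 in PP alone (Gpr126, Gpr35, Gpr55 and Gpr83). Those of Neuron include Gpr12, Gpr139, Gpr22, Gpr25, the 1546-base model of Gpr45, Gpr6 and Gpr61. Entries that passed through 1 fraction alone were kept for their level there, so the counts below describe the tested entries alone, and for such entries a higher level there is given as a description with no p. The 28 entries not tested stayed at or below 0.749 CPM in every library, and 12 of them had 10 counts or fewer in all. The highest was Gpr149, with 58 counts in Neuron and 1 each in DP and PP. Gpr17, Gpr34, Gpr65 and Gpr15, receptors known from immune or oligodendrocyte lineage cells, had 1 to 3 counts in Neuron against 25 to 32 in PP.

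**Figure D1:**
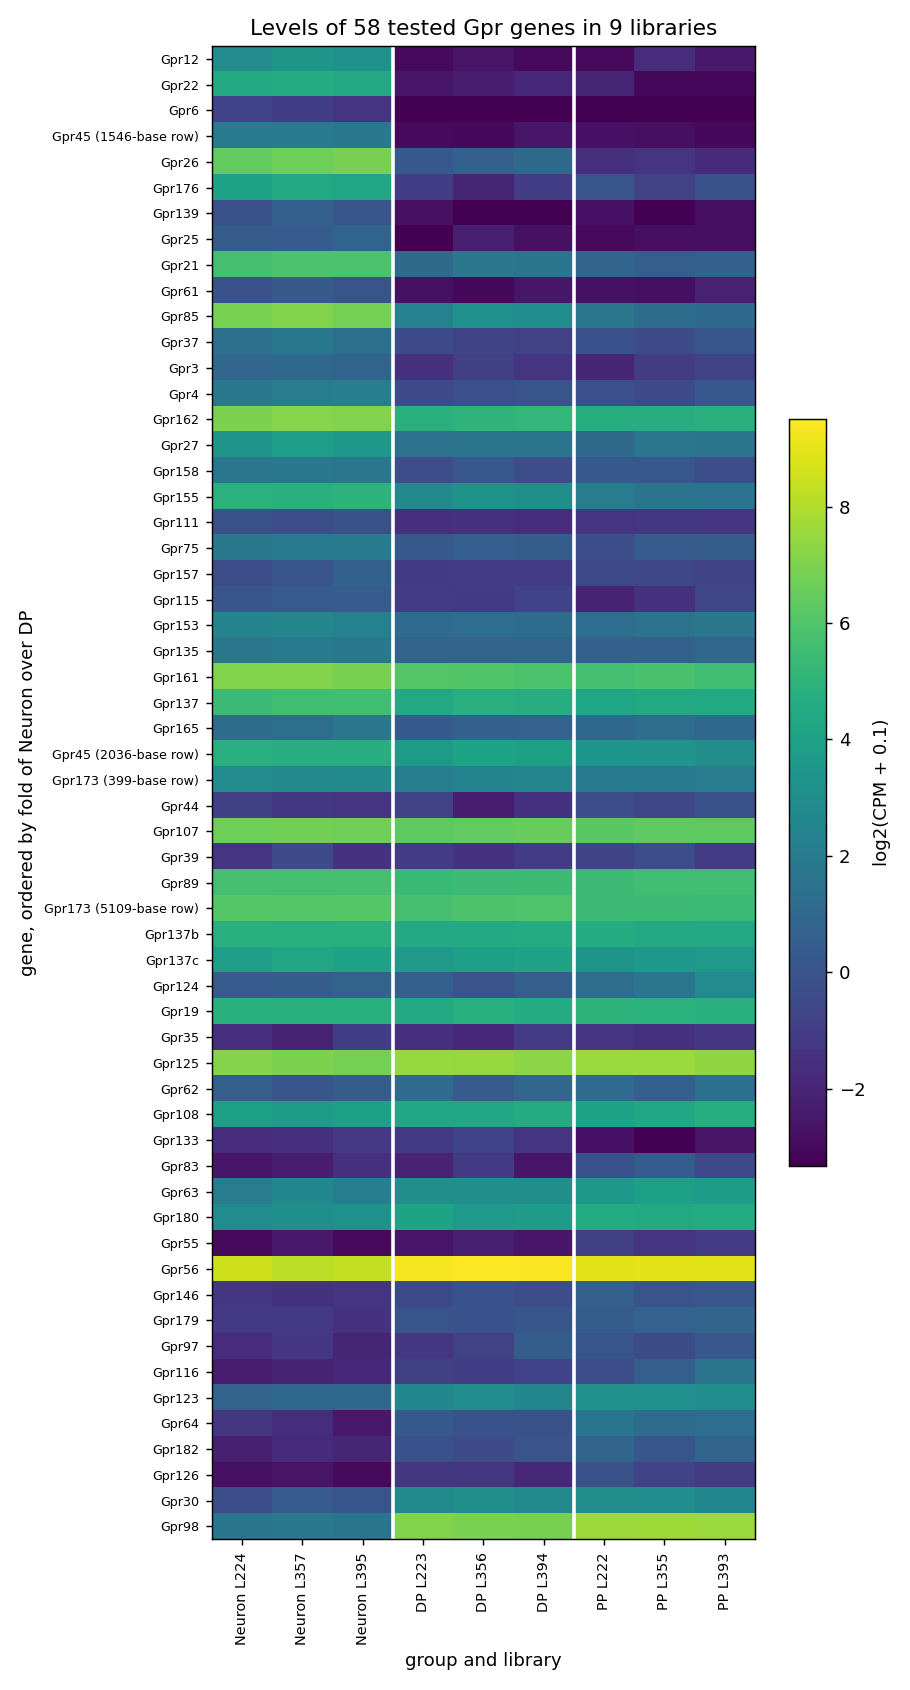
Levels of 58 tested Gpr entries (one per line, ordered by the fold of Neuron over DP) in the 9 libraries (columns, Neuron, DP and PP from the left), as log2(CPM + 0.1) in colour. Entries at the top are bright in Neuron columns only, Gpr98 at the bottom is bright in DP and PP, and Gpr56 is the brightest line in every fraction.

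Gpr22 and Gpr26, the genes the set was proposed from, are orphan receptors of class A. Gpr22 (ENSMUSG00000044067, mm9 chr12:32391732-32398812, minus strand) stood at 22.4, 24.3 and 21.3 CPM in Neuron, 0.0706, 0.0969 and 0.169 CPM in DP and 0.161, 0.0214 and 0.0205 CPM in PP. Neuron libraries lie far above the others, and DP and PP overlap, with 15 counts in DP and 8 in PP. The fitted log2 fold change of Neuron over DP was 7.64 ± 0.30 (SE). Gpr26 (ENSMUSG00000040125, mm9 chr7:139158143-139186088, plus strand), known for activity without a ligand, stood at 86.1, 100.5 and 119 CPM in Neuron, 1.06, 1.41 and 2.07 CPM in DP and 0.242, 0.299 and 0.185 CPM in PP. The 3 fractions do not overlap, and the log2 fold change was 6.07 ± 0.20 for Neuron over DP and 2.63 ± 0.33 for DP over PP. Per length, Gpr26 reached 8.79 CPM per kb and Gpr22 4.92 CPM per kb in Neuron, both under the 10 most abundant members there.

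**Figure D2:**
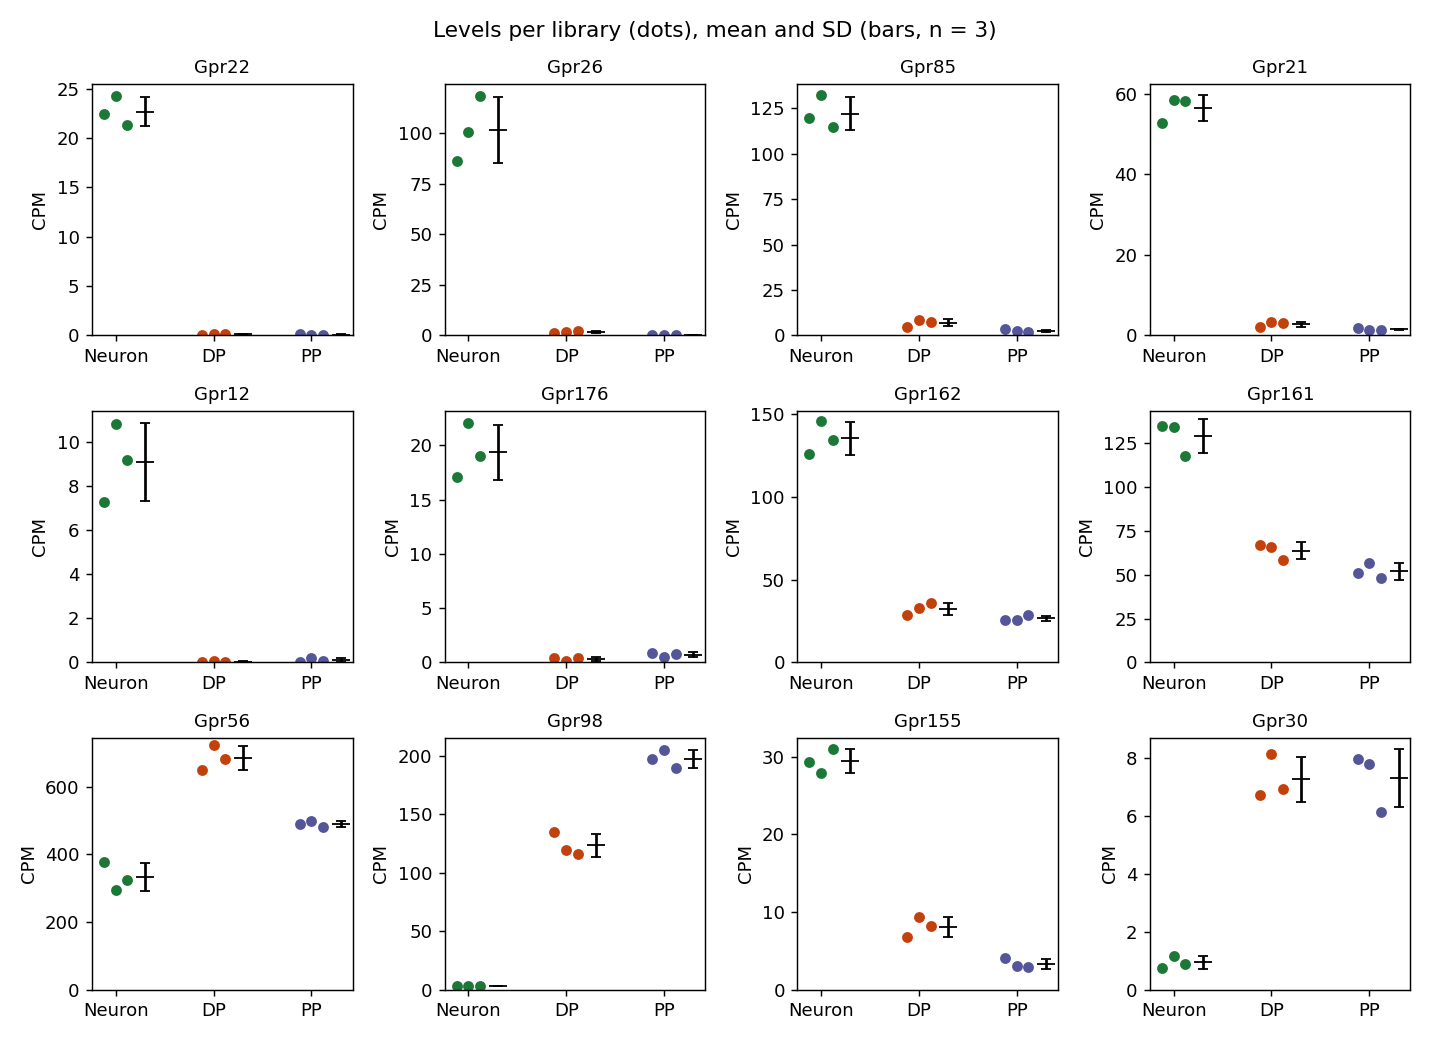
Level in CPM (vertical axes, from 0, 1 scale per panel) of 12 Gpr genes in Neuron, DP and PP, with 1 dot per library and the mean and SD of 3 libraries beside it. Gpr22, Gpr26, Gpr85, Gpr21, Gpr12, Gpr176 and Gpr155 are highest in Neuron, Gpr98 and Gpr30 are low there, and Gpr56 peaks in DP.

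Neuron against DP asks which receptor transcripts differ between the sorted neurons and the differentiating progenitors. Of the 61 tested entries, 35 were higher and 16 lower in Neuron (51 called, 83.6%), at an adjusted p under 0.05 by edgeR's quasi-likelihood test. Over all 18627 features tested, 67.3% were called, 33.1% as higher and 34.2% as lower. Libraries of the fractions did not overlap for 51 of the 61 tested entries (83.6%), beside 72.4% of all features, and 39 of the called entries changed at least 2-fold. The median log2 fold change was 0.42 over the tested entries and -0.04 over all features. Where a gene is said to move in both steps, the first value given is Neuron over DP and the second DP over PP. Against PP, which shares its Neuron libraries with this comparison, 36 were higher and 21 lower in Neuron (57 called, 93.4%), beside 75.3% of all features, 36.7% as higher and 38.6% as lower. Libraries did not overlap for 57 of the 61, beside 78.6% of all features.

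**Figure D3:**
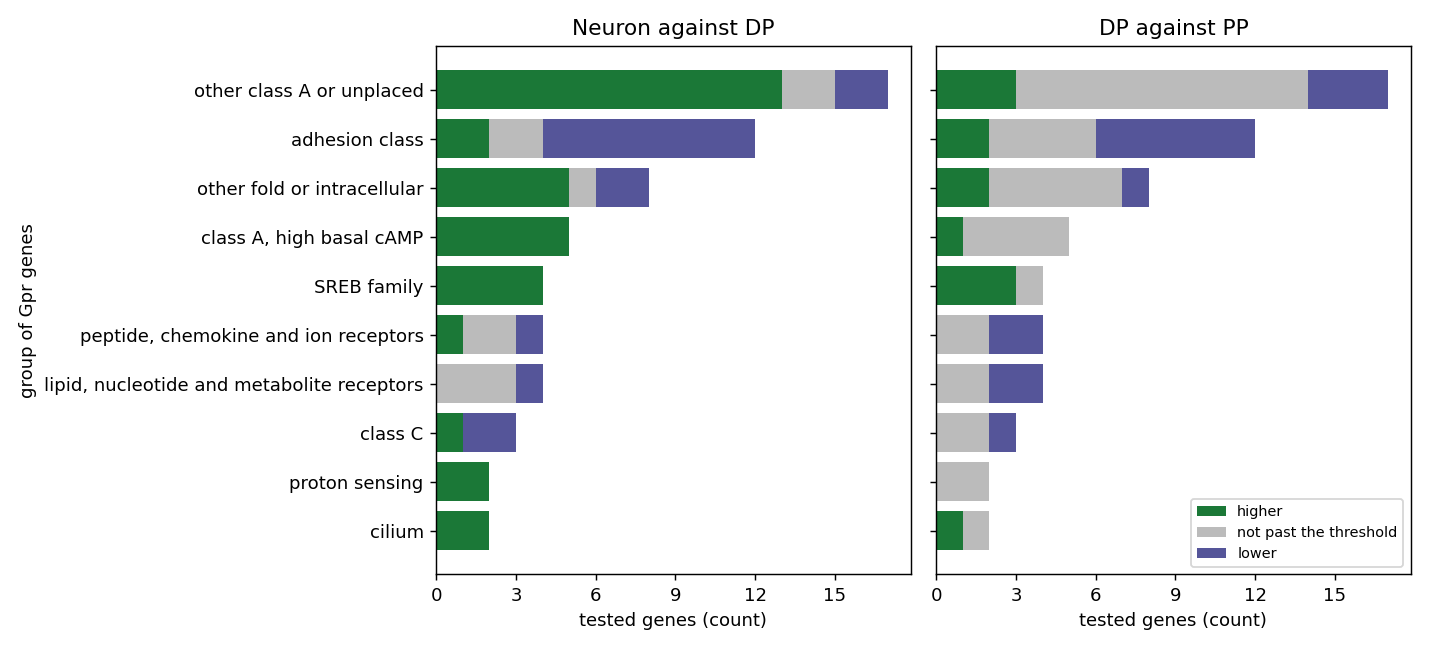
Number of tested Gpr entries (horizontal axis) that were higher, not past the threshold or lower, by receptor group, for Neuron against DP (left) and DP against PP (right). For Neuron against DP, the 4 entries of the SREB family are all on the higher side, and 8 of 12 adhesion receptors are on the lower side.

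Gpr3, Gpr6, Gpr12, Gpr26 and Gpr61 were grouped here as class A receptors that raise cAMP without a ligand. Each had a higher level in Neuron than DP. The set was proposed from Gpr26, and 3 of the others (Gpr6, Gpr12 and Gpr61) passed the filter through Neuron alone, so their shared direction follows in part from how they were chosen. Gpr3 is the only one that neither applies to. The adhesion receptor Gpr133, which also has basal Gs activity, had 0.263 ± 0.0643 CPM in Neuron and 0.382 ± 0.110 CPM in DP (log2 -0.56 ± 0.40). It passed the filter through DP alone, so these values are a description and no counterexample. Gpr12 stood at 7.28, 10.8 and 9.17 CPM in Neuron, 0.0235, 0.0581 and 0.0241 CPM in DP and 0.0268, 0.214 and 0.0822 CPM in PP. No Neuron library overlaps DP, where the gene had 5 counts in all, and the log2 fold change was 7.84 ± 0.42. Its relatives Gpr3 and Gpr6, the first a receptor tied to amyloid production, the second enriched in striatum, were much lower. Gpr3 stood at 1.76, 1.89 and 1.67 CPM in Neuron and 0.259, 0.446 and 0.289 CPM in DP, a log2 fold change of 2.39 ± 0.31 (edgeR adjusted p = 2.68e-05). Gpr6 had 53 counts in Neuron and 0 in DP and in PP, at least 18.3-fold higher than DP and at least 17.9-fold higher than PP against a floor of 3 counts over the group. Gpr61, an orphan with basal Gs activity, was at 0.843, 1.08 and 0.901 CPM in Neuron and 0.0471, 0.0194 and 0.0724 CPM in DP, a log2 fold change of 4.32 ± 0.42, and 5.21 in the single-read runs alone. Its relative Gpr62 was placed among the other class A receptors and not in this group, whose shared direction depends on that choice too. Gpr62 did not pass the test and had the opposite sign, with 1.36, 0.996 and 1.29 CPM in Neuron and 2.17, 1.24 and 1.81 CPM in DP (edgeR adjusted p = 0.111, but 0.0352 without DP library L356, 0.0444 in the paired-end runs alone and 0.0223 with sets of consecutively numbered libraries as a block).

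The SREB family (super conserved receptors expressed in brain) is made of Gpr27, Gpr85 and Gpr173, whose proteins hardly differ between vertebrates. All 4 entries were higher in Neuron than DP, by very different amounts. Gpr85 stood at 120, 132 and 115 CPM in Neuron, 4.85, 8.60 and 7.60 CPM in DP and 3.28, 2.18 and 1.95 CPM in PP. The 3 fractions are separate, with a log2 fold change of 4.12 ± 0.20 for Neuron over DP (edgeR adjusted p = 5.71e-09) and 1.53 ± 0.22 for DP over PP (edgeR adjusted p = 0.000207). Gpr27 stood at 10.1, 13.9 and 11.2 CPM in Neuron, 2.78, 2.91 and 2.97 CPM in DP and 2.04, 3.14 and 2.96 CPM in PP. It was higher in Neuron than DP (log2 2.02 ± 0.18, edgeR adjusted p = 8.85e-07), and DP and PP overlap (log2 0.08 ± 0.18, edgeR adjusted p = 0.763). Gpr173 was near its neuronal level in progenitors already. Its 5109-base model stood at 70.3, 67.3 and 70.2 CPM in Neuron, 53.1, 60.2 and 61.5 CPM in DP and 44.2, 44.8 and 43.0 CPM in PP, with log2 fold changes of 0.25 ± 0.07 and 0.40 ± 0.07 (edgeR adjusted p = 0.00741 and 0.000745). Its 399-base model lies within the long one on the same strand, so its reads are uncertain. Without libraries L222, L223 and L224 the Neuron over DP calls of both models were lost (edgeR adjusted p = 0.0519 and 0.103). Per length, Gpr85 and the long Gpr173 model stood at 29.9 and 13.6 CPM per kb in Neuron and at 1.72 and 11.4 CPM per kb in DP, so their order was the opposite in DP.

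Among other class A receptors and unplaced entries, 13 of 17 tested were higher and 2 (Gpr146 and Gpr63) lower in Neuron than DP. Over all features, 33.1% were higher and 34.2% lower. Some of the 13, among them Gpr22, Gpr25 and Gpr139, passed the filter through Neuron alone. Gpr176, an orphan known from the circadian clock of the suprachiasmatic nucleus, stood at 17.1, 22.1 and 19.0 CPM in Neuron, 0.400, 0.155 and 0.410 CPM in DP and 0.913, 0.470 and 0.822 CPM in PP. It was the only tested entry that was lower in DP than PP and higher in Neuron than DP (log2 -1.21 ± 0.35 and 5.94 ± 0.29, edgeR adjusted p = 0.0171 and 5.24e-09). Its fall in DP was no longer past the threshold without DP library L356, PP library L222 or PP library L393 (edgeR adjusted p = 0.0548 to 0.0683). Gpr162, an orphan abundant in brain, stood at 126, 146 and 134 CPM in Neuron, 28.4, 32.8 and 35.8 CPM in DP and 25.7, 25.7 and 28.5 CPM in PP (log2 2.06 ± 0.10 for Neuron over DP, edgeR adjusted p = 3.68e-09). Its relative Gpr153 was far lower and moved likewise, at 5.41, 6.10 and 4.94 CPM in Neuron and 2.17, 2.29 and 2.24 CPM in DP (log2 1.30 ± 0.16, edgeR adjusted p = 2.04e-05). Gpr139, a receptor for aromatic amino acids known from the habenula, had 140 counts in Neuron and 2 in DP, a ratio of 72.6 (95% interval 19.7 to 605, counting error only). Gpr25 stood at 1.26, 1.24 and 1.65 CPM in Neuron and 0, 0.116 and 0.0482 CPM in DP (log2 4.50 ± 0.47, and 5.69 without DP library L356). Its single exon shares 838 bases with a non-coding RNA on the other strand.

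Gpr45 and Gpr63, which are related orphans, went opposite ways. The 2036-base model of Gpr45 stood at 26.8, 25.6 and 25.3 CPM in Neuron, 12.7, 17.3 and 15.4 CPM in DP and 10.6, 10.0 and 7.85 CPM in PP, with no overlap between fractions (log2 0.77 ± 0.13 and 0.68 ± 0.13, edgeR adjusted p = 0.000245 and 0.0019). The 1546-base model, a single exon 76.9 kb downstream, stood at 3.63, 3.62 and 3.50 CPM in Neuron and 0.0235, 0.0194 and 0.0724 CPM in DP (log2 6.49 ± 0.33, 7.22 without DP library L394 and 5.88 in the single-read runs alone). These 2 models under 1 symbol thus differed in how much of their signal progenitors held. Gpr63, proposed as a receptor for sphingolipids, stood at 4.19, 6.14 and 4.35 CPM in Neuron, 7.89, 8.31 and 8.15 CPM in DP and 11.4, 15.3 and 13.3 CPM in PP. It fell in both steps (log2 -0.73 ± 0.16 and -0.72 ± 0.15, edgeR adjusted p = 0.00164 and 0.00296), and the 3 fractions are separate.

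Adhesion receptors carry long extracellular domains that a built-in cleavage splits from the helices, and they sense cell contacts and matrix. Of 17 entries 12 were tested, with 2 higher (Gpr111 and Gpr115) and 8 lower in Neuron than DP (Gpr56, Gpr64, Gpr97, Gpr98, Gpr116, Gpr123, Gpr125 and Gpr126). Over all features, 33.1% were higher and 34.2% lower. Gpr126 passed the filter through PP alone and Gpr133, also among the 12, through DP alone, so both were kept for a level outside Neuron. Gpr98 (ENSMUSG00000069170, mm9 chr13:81234067-81772153), the very large receptor mutated in human Usher syndrome, stood at 3.02, 3.43 and 3.09 CPM in Neuron, 135, 120 and 116 CPM in DP and 197, 205 and 190 CPM in PP. Every step is separate, with a log2 fold change of -5.27 ± 0.09 for Neuron over DP and -0.68 ± 0.07 for DP over PP (edgeR adjusted p = 1.9e-11 and 2.37e-05). Gpr56 (ENSMUSG00000031785, mm9 chr8:97508503-97538090), whose loss in humans causes a cobblestone-like cortical malformation, stood at 377, 295 and 324 CPM in Neuron, 650, 723 and 682 CPM in DP and 490, 498 and 481 CPM in PP. It was the only tested entry higher in DP than both other fractions (log2 0.49 ± 0.09 over PP and -1.05 ± 0.09 for Neuron over DP, edgeR adjusted p = 0.00103 and 7.07e-07). Gpr125, which acts in planar cell polarity in zebrafish, was 1.38-fold lower in Neuron than DP (log2 -0.47 ± 0.10, edgeR adjusted p = 0.00126) and kept the third or higher rank of CPM in DP and PP. Gpr123 stood at 1.57, 1.83 and 1.83 CPM in Neuron, 6.10, 7.36 and 5.74 CPM in DP and 8.97, 8.41 and 7.75 CPM in PP (log2 -1.88 ± 0.15 for Neuron over DP, edgeR adjusted p = 3.35e-07). Gpr64, best known from the male reproductive tract, stood at 0.304, 0.224 and 0.0773 CPM in Neuron, 1.15, 0.833 and 0.820 CPM in DP and 3.09, 2.22 and 2.28 CPM in PP, and fell in both steps (log2 -2.17 ± 0.36 and -1.43 ± 0.28, edgeR adjusted p = 0.000224 and 0.00162). The median log2 fold change of the 12 was -1.30 for Neuron over DP, beside -0.04 over all features. Gpr111 and Gpr115, which neighbour each other on chromosome 17 with a gap of 16.7 kb, stood at 0.752 to 0.798 and 0.936 to 1.20 CPM in Neuron, against 0.217 to 0.252 and 0.349 to 0.507 CPM in DP (log2 1.72 ± 0.24 and 1.43 ± 0.36, edgeR adjusted p = 4.66e-05 and 0.00429).

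Gpr56 has another adhesion receptor gene, Gpr97, 3.5 kb away on the same strand of chromosome 8. Gpr97 had less than 1 in 100 of its level per length, at 0.0917, 0.280 and 0.356 CPM per kb in Neuron, DP and PP. Gpr97 was lower in Neuron than DP (log2 -1.56 ± 0.51, edgeR adjusted p = 0.0174), without the rise of Gpr56 in DP (log2 -0.36 ± 0.43 for DP over PP, edgeR adjusted p = 0.539).

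Among class C receptors, Gpr158 was higher and Gpr179 lower in Neuron than DP. Gpr158, a receptor of neurons that binds RGS proteins, stood at 3.21, 3.39 and 3.19 CPM in Neuron and 0.706, 1.03 and 0.724 CPM in DP (log2 1.98 ± 0.21, edgeR adjusted p = 4.15e-06). Gpr179, needed for signalling of retinal bipolar cells, stood at 0.351, 0.345 and 0.258 CPM in Neuron, 0.895, 0.833 and 0.989 CPM in DP and 1.29, 1.56 and 1.73 CPM in PP (log2 -1.49 ± 0.24 for Neuron over DP, edgeR adjusted p = 0.000175).

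Of the smaller groups, the cilium receptors Gpr161 and Gpr157 were both higher in Neuron than DP. Gpr161, which holds down Hedgehog signalling from the primary cilium through cAMP, stood at 135, 134 and 118 CPM in Neuron, 66.98, 65.6 and 58.0 CPM in DP and 50.7, 56.8 and 47.8 CPM in PP (log2 1.02 ± 0.09 for Neuron over DP, edgeR adjusted p = 8.3e-07). The proton sensor Gpr4 was higher in Neuron too, with 3.42, 4.10 and 4.33 CPM against 0.683, 0.775 and 0.892 CPM in DP (log2 2.33 ± 0.22, edgeR adjusted p = 1.65e-06). Of 11 receptors for lipids, nucleotides and metabolites 4 were tested and 1 was called, Gpr30 (Gper1, a membrane receptor for oestrogen). It stood at 0.749, 1.18 and 0.901 CPM in Neuron, 6.71, 8.16 and 6.95 CPM in DP and 7.97, 7.80 and 6.14 CPM in PP. Neuron lies below all progenitor libraries (log2 -2.93 ± 0.19, edgeR adjusted p = 6.58e-08), while DP and PP overlap. Of 7 receptors for peptides, chemokines and ions 4 were tested, with Gpr37, a receptor that the ubiquitin ligase parkin acts on, higher (log2 2.40 ± 0.23, edgeR adjusted p = 1.88e-06) and Gpr182, an endothelial scavenger of chemokines, lower in Neuron (log2 -2.27 ± 0.34, edgeR adjusted p = 9.51e-05).

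Of 8 tested entries of another fold or of intracellular membranes, 5 were higher and 2 lower in Neuron than DP. Over all features the shares were 33.1% higher and 34.2% lower, and 8 entries are too few to set against them. Gpr155, a cholesterol sensor of lysosomes, had the largest log2 fold change of the 8, with 29.3, 27.9 and 31.0 CPM in Neuron, 6.73, 9.34 and 8.18 CPM in DP and 4.11, 2.99 and 2.90 CPM in PP. It rose in both steps (log2 1.86 ± 0.14 and 1.29 ± 0.15, edgeR adjusted p = 2.98e-07 and 5.22e-05). Gpr180 fell in both (log2 -0.76 ± 0.13 and -0.70 ± 0.13, edgeR adjusted p = 0.000269 and 0.00101). Gpr108, a Golgi protein, was 1.46-fold lower in Neuron than DP (edgeR adjusted p = 0.00324), and its relative Gpr107 1.23-fold higher (edgeR adjusted p = 0.00264).

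**Figure D4:**
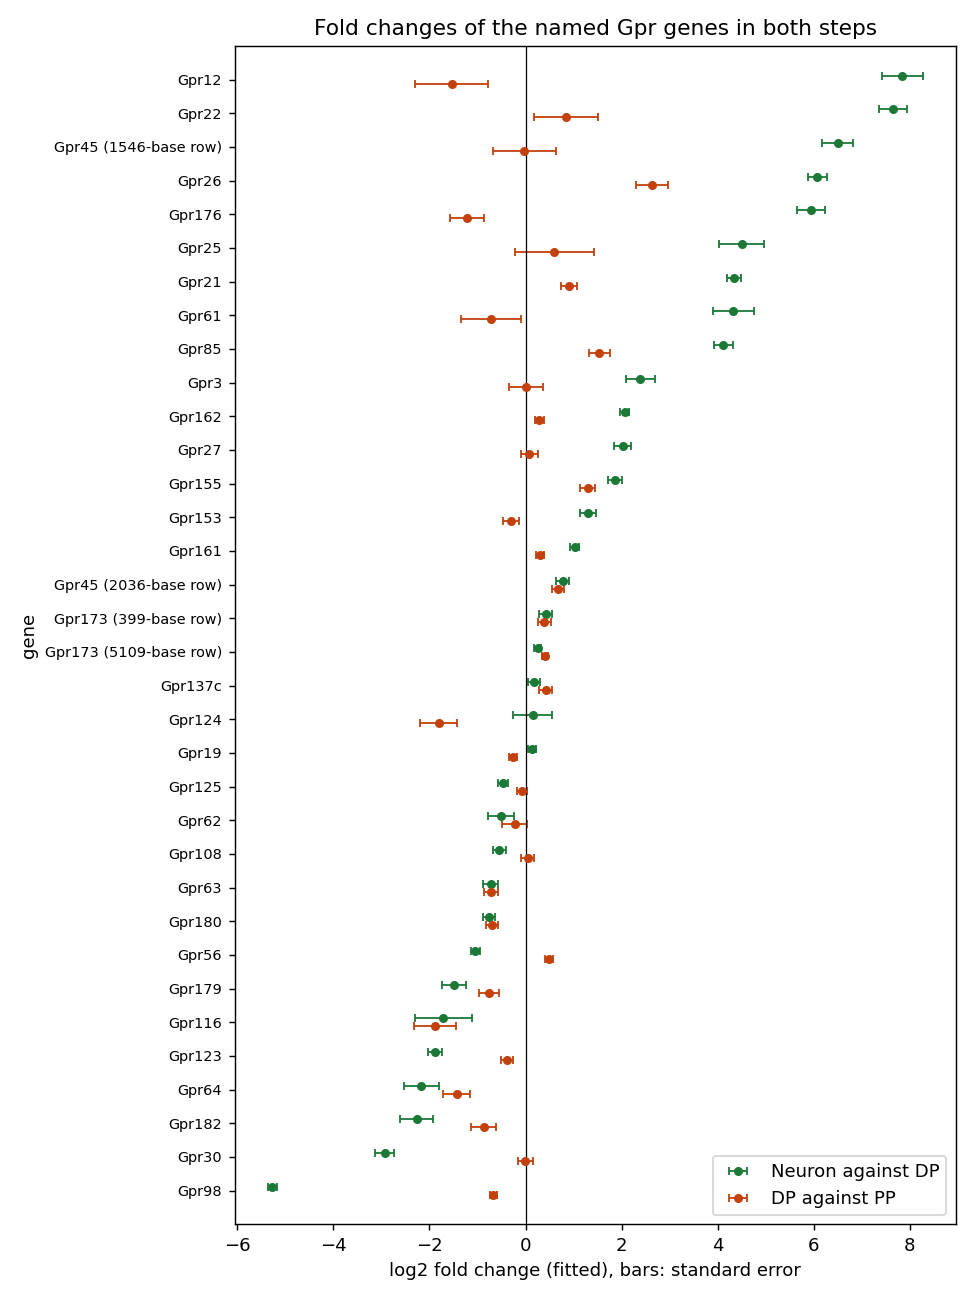
Fitted log2 fold change with its standard error (horizontal axis) of named Gpr entries, for Neuron against DP and for DP against PP, ordered by the first. Gpr6 and Gpr139 are left out because DP held 2 counts or fewer. Most entries lie farther from 0 for Neuron against DP, and Gpr56 and Gpr176 have opposite signs in the 2 comparisons.

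DP against PP sets progenitors on the way to neurogenic division beside those still expanding. Of the 61 tested entries, 12 were higher and 15 lower in DP (27 called, 44.3%), beside 41.4% of all features, 21.3% as higher and 20.2% as lower. The share among the tested entries was thus near that of all features. Libraries did not overlap for 33 of the 61 (54.1%), beside 49.7% of all features. Changes were smaller, with 12 entries at least 2-fold, and a median log2 fold change of -0.13 beside -0.02 over all features. In the single-read runs alone 8 entries were lower and 10 higher. Higher in DP were Gpr26, Gpr85, Gpr155, Gpr21, both models of Gpr173, the long model of Gpr45, Gpr56, Gpr133, Gpr137c, Gpr161 and Gpr162. Gpr133, which passed the filter through DP alone, stood at 0.353, 0.504 and 0.289 CPM in DP and 0.0537, 0 and 0.0616 CPM in PP (log2 3.26 ± 0.57 for DP over PP). Gpr21, an orphan, stood at 52.9, 58.5 and 58.2 CPM in Neuron, 2.095, 3.24 and 3.06 CPM in DP and 1.72, 1.37 and 1.42 CPM in PP, and rose in both steps (log2 4.33 ± 0.15 and 0.91 ± 0.17, edgeR adjusted p = 4.14e-10 and 0.00115). It lies inside Rabgap1 on the same strand with 74 exon bases in common, where a read can be given to either. Rabgap1 itself was higher by 0.46 on the log2 scale in both steps.

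Several DP against PP calls lay near the threshold, and were lost when 1 or another library was left out. With 1 library left out at a time, the adjusted p by edgeR was 0.0529 to 0.0606 for Gpr161 (without DP L356, PP L222 or PP L393) and 0.0795 to 0.127 for Gpr162 (DP L356, DP L394, PP L222 or PP L355). It was 0.0555 to 0.109 for Gpr137c (DP L356, DP L394, PP L222 or PP L355) and 0.0521 to 0.124 for the short Gpr173 model (6 of 9 libraries). Among the falls it was 0.0524 to 0.134 for Gpr123 (Neuron L357, DP L223, DP L394, PP L222 or PP L355), 0.0648 to 0.0785 for Gpr182 (DP L356, PP L222 or PP L393) and 0.0512 to 0.128 for Gpr19 (7 of 9 libraries). In these fits the log2 fold changes kept their sign, at 0.20 to 0.44 for the rises and -0.75 to -0.20 for the falls. Gpr179 was at an adjusted p of 0.0502 by edgeR in the single-read runs alone. Conversely, Gpr12 was at 0.0484 without PP L222, with a log2 fold change of -1.92 for DP over PP.

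Gpr124 and Gpr116, which are known from endothelium, were lower in DP than PP. Gpr4, known from endothelium too, was not past the threshold (log2 -0.06 ± 0.24, edgeR adjusted p = 0.859). Gpr124, which brain endothelium needs for Wnt signalling, stood at 1.17, 1.28 and 1.60 CPM in Neuron, 1.41, 0.872 and 1.37 CPM in DP and 2.26, 3.22 and 7.17 CPM in PP (log2 -1.81 ± 0.38 for DP over PP, edgeR adjusted p = 0.00281). Gpr116, a receptor of endothelium and lung, stood at 0.0936, 0.142 and 0.180 CPM in Neuron, 0.447, 0.426 and 0.507 CPM in DP and 0.725, 1.39 and 2.92 CPM in PP (log2 -1.88 ± 0.43, edgeR adjusted p = 0.00464). PP library L393 is the highest for both, and without it the log2 fold changes were -1.17 and -1.21. For Neuron against DP, Gpr116 was at an adjusted p of 0.0226 by edgeR, and at 0.0713 or 0.0558 without Neuron L224 or L357. Gpr182, Gpr126, Gpr55, Gpr83 and Gpr44 were also lower in DP than PP, with log2 fold changes of -0.87 to -2.18. Of these, Gpr126, Gpr55 and Gpr83 passed the filter through PP alone. Their lower level in DP follows in part from how they were kept and is a description. Markers of other cells were read beside them, and not all lists moved the same way. Of 10 tested choroid plexus and hem markers 8 were higher and 0 lower in DP than PP, with sums of 85.3 to 133 CPM in DP and 27.9 to 68.3 CPM in PP. Of 5 tested oligodendrocyte precursor markers 1 was lower and 0 higher. Of 11 tested endothelial markers 7 were lower and 0 higher in DP than PP, with a summed level of 4.53 to 7.62 CPM in Neuron, 11.7 to 14.3 CPM in DP and 13.3 to 37.1 CPM in PP, PP L393 again the highest. Of 8 tested pericyte markers 7 were lower, with sums of 9.29 to 14.6 CPM in DP and 34.2 to 67.1 CPM in PP, and of 13 microglial markers 3 were lower and 1 higher. Of 4 tested meningeal fibroblast markers 3 were lower and 1 higher, and the 8 of the list summed to 0.691 to 1.65 CPM in Neuron, 3.72 to 8.99 CPM in DP and 13.5 to 94.4 CPM in PP, with PP L393 the highest here too. No defining endothelial or microglial marker was at 0 in a fraction. Of 12 red blood cell genes 10 were lower, with sums of 19.1 to 125 CPM in DP and 8367 to 15335 CPM in PP. The part of these cells in the falls was not tested.

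Markers of other neuron classes moved with the rises in Neuron. Ventral progenitor and interneuron markers were higher in Neuron than DP for 9 of 13 tested genes and lower for 2, with sums of 585 to 611 CPM in Neuron and 121 to 278 CPM in DP. Of 9 Cajal-Retzius markers 7 were higher and 1 lower in Neuron than DP, with sums of 947 to 1073 CPM in Neuron, 112 to 138 CPM in DP and 11.7 to 19.3 CPM in PP. Their part in the levels of Gpr6, Gpr139 and the other receptors was not tested. The list of neuronal markers, which checks the labels, summed to 10137 to 10819 CPM in Neuron, 2150 to 3005 CPM in DP and 214 to 445 CPM in PP.

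Read over both steps, 9 entries were higher in each (Gpr21, Gpr26, Gpr85, Gpr155, Gpr161, Gpr162, the long Gpr45 model and both Gpr173 models) and 9 lower in each (Gpr63, Gpr64, Gpr98, Gpr116, Gpr123, Gpr126, Gpr179, Gpr180 and Gpr182). These are 14.8% of the tested entries each, against 12.4% and 10.9% of all features. Another 25 entries (41.0%, against 16.2% of all features) did not pass the threshold for DP against PP and were higher in Neuron than DP, and 6 did not pass and then were lower. Gpr35, Gpr39 and Gpr62 passed the threshold in neither comparison. Both steps share the DP libraries, so the patterns are counts and not a relation between the steps.

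Some entries overlap other genes. No source used here states strand-specific counting, so reads of antisense pairs cannot be told apart. Gpr22 lies within Cog5 on the other strand with 0 exon bases in common, and Cog5 stood at 21.9 ± 1.58 CPM in Neuron, 22.0 ± 1.26 CPM in DP and 19.4 ± 1.49 CPM in PP. Gpr26 lies within the span of Fgfr2 on the other strand, also with 0 exon bases in common, and Fgfr2 fell in both steps (log2 -1.50 for Neuron over DP and -1.38 for DP over PP). Larger overlaps of exons with a gene on the other strand were found for Gpr89 with Pdzk1 (1333 bases), Gpr39 with Lypd1 (1202 bases), Gpr44 with Ccdc86 (1031 bases) and Gpr137 with Bad (517 bases).

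The machinery that receptors act through was read in 6 lists. Of 68 tested genes, 39 were higher and 14 lower in Neuron than DP, and 15 higher and 22 lower in DP than PP. The called share was 77.9% for Neuron against DP, beside 67.3% of all features, and 54.4% for DP against PP, beside 41.4%. The median log2 fold change of Neuron over DP was 0.61 for G alpha, 0.48 for beta and gamma, 1.67 for adenylyl cyclase, 0.53 for RGS, -0.0032 for kinase and arrestin and 2.68 for receptor associated genes, beside -0.04 over all features. Of 13 G alpha genes 8 were higher and 2 lower in Neuron than DP, and 0 higher and 8 lower in DP than PP. Gnal, the stimulatory subunit of olfactory and striatal neurons, stood at 74.6, 82.5 and 69.1 CPM in Neuron, 6.33, 6.97 and 8.20 CPM in DP and 5.69, 5.49 and 6.96 CPM in PP (log2 3.40 ± 0.13 for Neuron over DP, edgeR adjusted p = 7.42e-10). Its change for DP over PP did not pass the threshold (edgeR adjusted p = 0.153, but 0.043 without PP L393). Gnai2, an inhibitory subunit, went the other way with 115, 100.1 and 86.2 CPM in Neuron, 335.02, 253 and 224.07 CPM in DP and 491, 512 and 436 CPM in PP, separate in each step (log2 -1.43 ± 0.15 and -0.83 ± 0.14, edgeR adjusted p = 3.61e-06 and 0.000777). Gnai1, its close relative, was lowest in DP (34.3, 19.3 and 33.0 CPM on average in Neuron, DP and PP). Gnaz, an inhibitory subunit of neurons, rose in Neuron (log2 2.38 ± 0.13, edgeR adjusted p = 1.16e-08). Its fall in DP against PP (log2 -0.42) was not past the threshold without DP L223, DP L394 or PP L355 (edgeR adjusted p = 0.0546 to 0.0883).

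**Figure D5:**
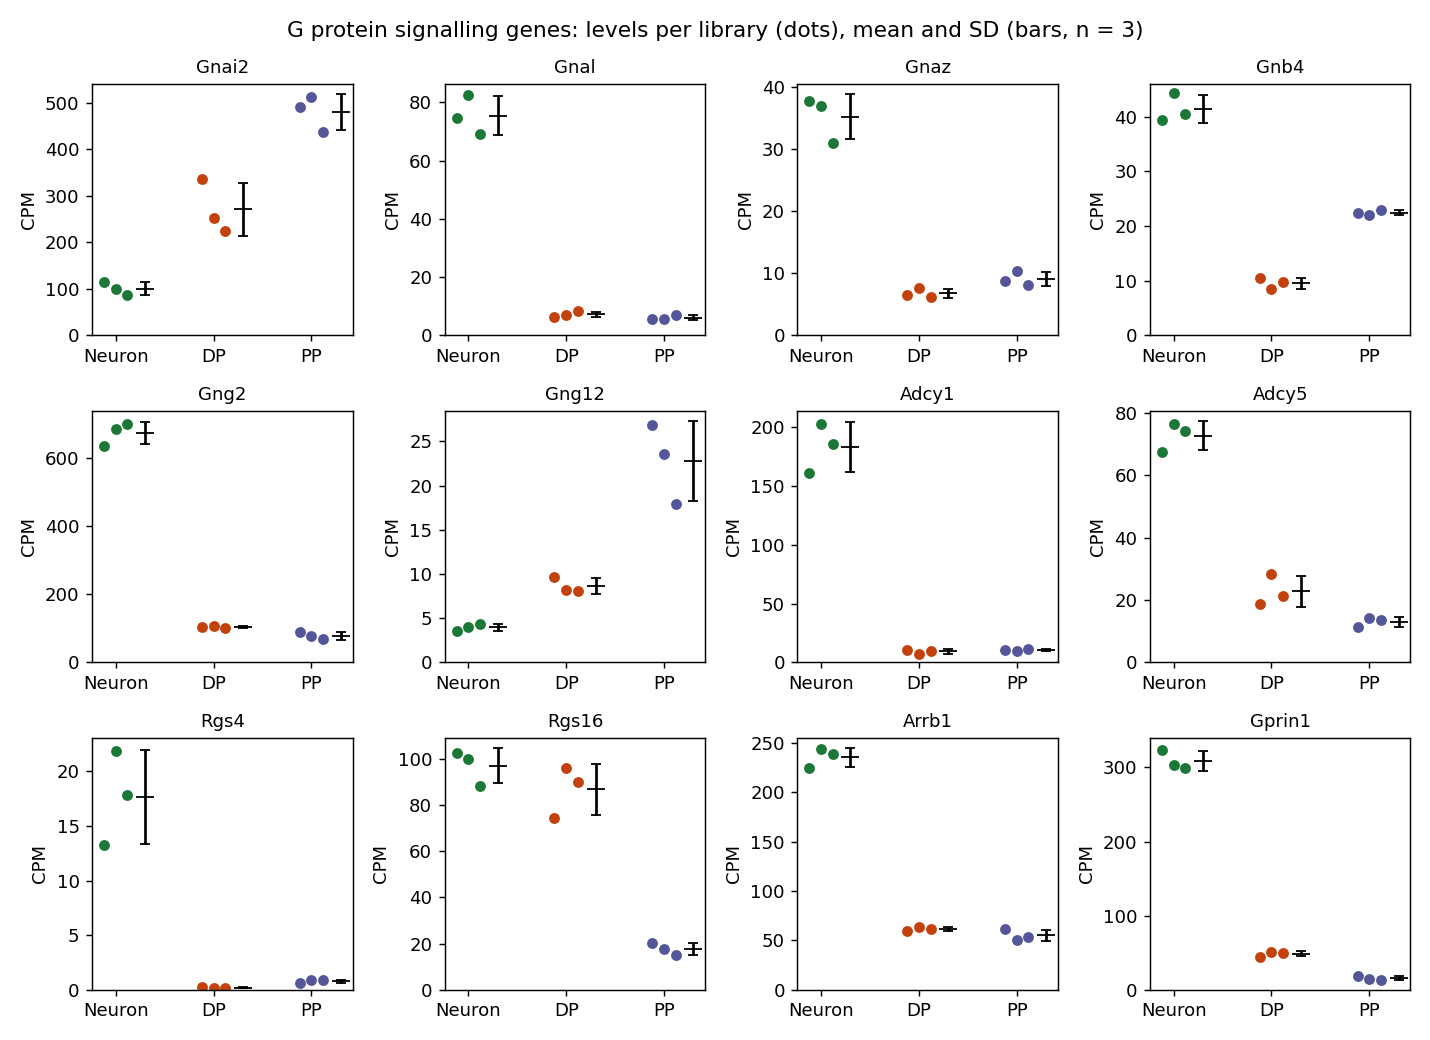
Level in CPM (vertical axes, from 0, 1 scale per panel) of 12 G protein signalling genes in Neuron, DP and PP, with 1 dot per library and the mean and SD of 3 libraries beside it. Gnal, Gng2, Adcy1, Rgs4, Arrb1 and Gprin1 are highest in Neuron, Gnai2 and Gng12 in PP, and Gnb4 is lowest in DP.

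Of 15 genes for beta and gamma subunits, 9 were higher and 4 lower in Neuron than DP. Gng2 stood at 636, 685 and 699 CPM in Neuron and 105, 107 and 101 CPM in DP (log2 2.69 ± 0.10, edgeR adjusted p = 7.47e-10), while Gng12 fell in both steps (log2 -1.13 ± 0.16 and -1.40 ± 0.15, edgeR adjusted p = 5.54e-05 and 2.12e-05). Of 9 adenylyl cyclases 6 were higher and 1 lower in Neuron than DP. Adcy1, the neuronal cyclase that calcium activates, stood at 161, 202 and 186 CPM in Neuron, 10.6, 7.34 and 10.2 CPM in DP and 10.2, 10.1 and 11.4 CPM in PP (log2 4.29 ± 0.14 for Neuron over DP, edgeR adjusted p = 3.61e-10). Adcy5 rose in both steps (log2 1.67 ± 0.14 and 0.80 ± 0.14, edgeR adjusted p = 7.02e-07 and 0.000946). Adcy9 rose in Neuron (log2 1.98 ± 0.13, edgeR adjusted p = 5.93e-08), and the small rise of Adcy3 (log2 0.25) was lost without Neuron L357 or DP L356 (edgeR adjusted p = 0.102 to 0.109).

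Of 17 RGS genes 8 were higher and 4 lower in Neuron than DP, and 6 higher and 8 lower in DP than PP. Rgs4, which shortens Gi and Gq signals, stood at 13.2, 21.9 and 17.8 CPM in Neuron, 0.259, 0.174 and 0.145 CPM in DP and 0.591, 0.876 and 0.842 CPM in PP (log2 6.50 ± 0.28 and -2.003 ± 0.34, edgeR adjusted p = 2.12e-09 and 0.000717). Rgs6 had the same shape, with its fall in DP (log2 -1.26) at an adjusted p of 0.0554 by edgeR without PP L355. Rgs16 rose in DP against PP, with 103, 100.03 and 88.5 CPM in Neuron, 74.5, 96.1 and 90.04 CPM in DP and 20.4, 17.4 and 15.1 CPM in PP (log2 2.30 ± 0.12 for DP over PP, edgeR adjusted p = 2.95e-07). Rgs5, a pericyte gene, was lower in DP than PP (log2 -3.52 ± 0.50, edgeR adjusted p = 0.000181, and log2 -4.37 without DP L223), beside the pericyte markers above. Its Neuron over DP change was past the threshold only without DP L223 among the libraries (edgeR adjusted p = 0.0363, and 0.404 with all). Of 9 receptor kinases and arrestins 3 were higher and 3 lower in Neuron than DP. Arrb1, a beta-arrestin, stood at 224.5, 243 and 238 CPM in Neuron and 59.2, 63.6 and 61.7 CPM in DP (log2 1.94 ± 0.08, edgeR adjusted p = 1.56e-09), and its DP over PP change passed only without PP L222 (edgeR adjusted p = 0.0229). Adrbk2, a receptor kinase, rose in both steps (log2 0.31 ± 0.12 and 1.11 ± 0.13, edgeR adjusted p = 0.0441 and 3.8e-05), and its rise in Neuron was lost when any 1 of 5 libraries was left out (Neuron L357 or L395, DP L223, PP L222 or L355; edgeR adjusted p = 0.0502 to 0.181). All 5 receptor associated genes were higher in Neuron than DP, among them Gprin1, which G proteins bind in growing neurites, at 324, 303 and 299 CPM in Neuron, 44.7, 50.8 and 49.4 CPM in DP and 19.1, 14.2 and 13.3 CPM in PP (log2 2.68 ± 0.12 and 1.64 ± 0.12, edgeR adjusted p = 2.54e-09 and 1.28e-06).

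In the authors' deposited table, 37 Gpr entries were higher and 16 lower in Neuron than DP at an adjusted p under 0.05, and 12 higher and 15 lower in DP than PP. Of the calls made here, 51 of 51 for Neuron against DP and 26 of 27 for DP against PP stood in the authors' deposited table with the same direction. The exception was Gpr126, which was not past the threshold for DP against PP in the authors' deposited table. The other calls of the authors' deposited table were of entries filtered here, among them Gpr149 for Neuron against DP.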

How the data were processed

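Poly-A RNA of 9 libraries, 3 per fraction, was sequenced in a single-read and a paired-end run (18 samples in the labels). The authors deposited raw counts per gene of every run, for 37620 Ensembl release 67 genes and 630 unannotated transcripts, per the file headers. TopHat2 2.0.10, featureCounts 1.4.4, DESeq2 1.4.5 and the build mm9 are named in the submitters' processing notes, which give them no role. A normalised signal that the authors deposited beside their comparisons equalled the added counts over 1 size factor per library within 0.06 in 159605 and 159604 of 159606 values. Those tables also hold the authors' log2 fold changes, their errors and statistics as a score, and p-values.

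Counts of both runs were added, as 1 replicate. Totals were 42840710 to 55935128 in Neuron, 39836073 to 50535080 in DP and 34337209 to 43520336 in PP. The column names tie a library to its group and to no replicate number of the labels. The library numbers fall into 3 consecutive sets with 1 library per group. Deviations from the group means correlated at r = 0.13 to 0.34 over features in the 9 pairs of the same set and at -0.32 to 0.01 in the 18 others, so the sets pair the libraries, and a fit with them as a block was added. The series design states biological replicates, and libraries within a group differed by more than counting error (chi-square over degrees of freedom 8.48 to 31.27). Groups were compared over all features by edgeR's quasi-likelihood test (version 4.0.16, R 4.3.3) fitted to all 9 libraries after filterByExpr and TMM scaling, with Benjamini-Hochberg adjustment at 0.05. CPM were computed from TMM-scaled totals, and CPM per kb divides them by the length in the count table. A count of 1 was worth 0.0194 to 0.0269 CPM. The tests were tried on simulated counts with known changes. Alternatives were other scaling, no filter, DESeq2 1.42.0, only the groups compared, either run alone and leaving out each library.

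The members, the gene lists and the tests were chosen with earlier results of these data known. Named were Gpr22 and Gpr26, up to 10 members per direction and comparison with the largest change (past the threshold, at least 1 CPM, no overlap), the 5 most abundant per length in each group, 5 families of related proteins and members of opposite directions. Of each signalling list, the 2 largest changes with at least 10 CPM were named. Other members named were chosen after their values were seen. Protein sequences were not analysed here. The pseudogene Gpr144 was left out. Values of some members are not reported here, though they stay in the counts.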

Additional observations from a re-analysis of the deposited data

How the results depend on the processing

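With sets of consecutive library numbers as a replicate block, an alternative chosen after seeing the data, 53 Gpr entries were called for Neuron against DP, 57 for Neuron against PP and 30 in the comparison of DP with PP. No call of a Gpr entry was lost. Those gained were Gpr62 and Gpr137c (edgeR adjusted p = 0.0484) for Neuron against DP, and Gpr107, Gpr137 and Gpr165 for DP against PP (edgeR adjusted p = 0.044, 0.0138 and 0.0262). Of the signalling genes 42 in place of 37 were called, and Rgs11 was lost, for DP against PP (edgeR adjusted p = 0.0522). The counts of called Gpr entries stayed within 1.5 times of those reported under other scaling, no filter, DESeq2, only the groups compared, paired-end runs alone and with L222, L223 and L224 all left out (an alternative chosen after seeing the data), and the exception was the number lower in DP than PP in the single-read runs alone, 8 in place of 15. Several log2 fold changes of DP over PP, most of them near 0, changed sign without passing the threshold in either setting. Gpr30 (-0.0037) was at 0.013 with no filter, 0.030 in the paired-end runs, 0.13 without the 3 libraries and -0.105 to 0.066 without single libraries. The short Gpr45 model (-0.027) was at 0.50 in the single-read runs, 0.44 without the 3 libraries and -0.75 to 0.32 without single libraries. Gpr3 (0.0091) was at -0.58, -0.12 and -0.28 to 0.32, and Gpr27 (0.080) at -0.012, -0.041 and -0.079 to 0.20, in the same settings. Gpr25 (0.60, on 8 counts in DP and 5 in PP) was at -0.0073 in the single-read runs and -0.60 to 1.14 without single libraries. Gpr108 (0.043) was at -0.039 without the 3 libraries and -0.076 to 0.22 without single ones. Of Neuron over DP, Gpr124 (0.15) was at -0.00021 in the paired-end runs and -0.052 to 0.28 without single libraries. In none of these was the cause tested. Low counts limit Gpr6, Gpr139 and the untested entries most.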
